A study of Homo sapiens with 9 samples.

Results

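The cytosolic ribosomal protein genes were measured by RNA-seq in TE13 cells, an established human esophageal squamous cell carcinoma (ESCC) line, with and without siRNA knockdown of the lncRNA PARylator. Members were taken by gene symbol alone: RPL or RPS followed by a number and, where present, a letter or paralog suffix, plus RPLP0, RPLP1, RPLP2 and RPSA, with pseudogenes left out. The rule found 84 of the 60605 genes in the deposited table, 52 of the large subunit and 32 of the small subunit, and among them are 7 paralogs of other members. Of the 84, 83 had the mean of at least 0.1 FPKM, counts scaled by exon length and library size, that testing required, and RPL10L was at 0 counts in every library.

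Of the 9 libraries, 3 came from cells given control siRNA and 3 from cells given each of the PARylator siRNAs, named siRNA.1 and siRNA.2, and the submitters call them biological replicates. Poly(A)+ RNA was sequenced. Each PARylator siRNA is a separate reagent against the same transcript in the same cell line, and the time after transfection of these cultures is not given in the sources used here. Counts of LINC00885, the gene of PARylator, were 6, 7 and 12 in the control libraries, 4, 5 and 2 after siRNA.1, and 2, 0 and 4 after siRNA.2. Its log2 fold change was -1.21 ± 0.95 (SE, n = 3 against 3, edgeR adjusted p = 0.376) after siRNA.1 and -2.33 ± 1.01 (edgeR adjusted p = 0.0659) after siRNA.2, so the knockdown did not pass the test at this depth. The paper reports the knockdown of PARylator in TE13 cells by qPCR, a measure other than these counts. Total counts lay between 15337917 and 22559998 per library. Mitochondrially encoded genes took 7.46% to 7.66% of the counts in the control libraries, 4.99% to 5.06% after siRNA.1 and 5.54% to 5.56% after siRNA.2. All 7 epithelial markers on the list, not all of them particular to squamous cells, were above 1 FPKM. Their summed level was 843 to 867 FPKM in the control libraries, 758 to 803 after siRNA.1 and 712 to 729 after siRNA.2. The sum joins markers that went opposite ways: the mean of KRT5 was 142 FPKM in the control libraries, 40.0 after siRNA.1 and 55.8 after siRNA.2, and that of EPCAM was 99.0, 137 and 136 FPKM. The 5 leukocyte markers summed to 0.16 to 0.58 FPKM, 3.07 to 3.57 FPKM and 3.28 to 3.75 FPKM in the same order, most of it from LYZ. PTPRC stayed at 0.22 FPKM or less, and MS4A1 was at 0 in every library. The part of these shifts in the results below was not tested.

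The cytosolic ribosome is built from a large subunit, which forms peptide bonds, and a small subunit, which reads the mRNA. Each carries its own set of ribosomal proteins, nearly all needed in equal numbers. Most of these proteins come from a single active gene that has many silent processed pseudogenes. Their mRNAs typically start with a cytosine followed by a run of pyrimidines, the terminal oligopyrimidine (TOP) motif, through which mTOR signaling and the RNA-binding protein LARP1 control their translation and stability. A few members have paralogs that can take their place in the ribosome or that have roles of their own.

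Transcript starts of members that recur in the results were read from RefSeq (GRCh38.p14), 10 bases before the annotated start and 20 from it on, 5′ to 3′ on the strand of the gene. Capitals mark the run that opens with C and continues with at least 4 pyrimidines within 10 bases of the start. RPLP0, RPSA and RPS3A were lower with both siRNAs, RPL28, RPL36 and RPS12 were higher with both, and the remaining sequences set 3 parent genes beside their paralogs.
RPLP0 at chr12:120201092-120201121, minus strand: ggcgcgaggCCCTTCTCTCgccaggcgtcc
RPSA at chr3:39406710-39406739, plus strand: tgccgcctgtCTTTTCCgtgctacctgcag
RPS3A at chr4:151099618-151099647, plus strand: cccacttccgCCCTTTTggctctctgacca
RPL28 at chr19:55385922-55385951, plus strand: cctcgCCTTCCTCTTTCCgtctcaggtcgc
RPL36 at chr19:5690285-5690314, plus strand: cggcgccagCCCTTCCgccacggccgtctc
RPS12 at chr6:132814559-132814588, plus strand: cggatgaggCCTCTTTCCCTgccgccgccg
RPL22 at chr1:6199576-6199605, minus strand: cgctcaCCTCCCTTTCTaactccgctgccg
RPL22L1 at chr3:170870176-170870205, minus strand: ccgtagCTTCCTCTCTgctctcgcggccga
RPS27 at chr1:153990752-153990781, plus strand: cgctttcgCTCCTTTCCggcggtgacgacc
RPS27L at chr15:63157458-63157487, minus strand: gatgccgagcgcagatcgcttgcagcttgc
RPL26 at chr17:8383174-8383203, minus strand: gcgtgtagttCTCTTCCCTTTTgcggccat
RPL26L1, start at chr5:172958719-172958748, plus strand: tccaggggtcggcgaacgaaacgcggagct
RPL26L1, start at chr5:172958870-172958899, plus strand: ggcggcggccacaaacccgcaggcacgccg

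These letters were searched on the strand of the gene. Of the 67 members found in the RefSeq table, 58 (86.6%) held the run near at least 1 annotated start, against 34.8% of 69 mitochondrial ribosomal protein genes and 38.4% of all 27305 genes in that table. A run opening exactly at the annotated start stood in 56.6% of the 83 member windows and in 4.07% of all 35116 windows. RPL22L1 held it like its parent RPL22, whereas the windows of RPS27L, RPL26L1 and RPL7L1 had no match. Both directions of change occurred among genes with the run: 4 of 58 were higher and 17 lower after siRNA.1, and 17 were higher and 9 lower after siRNA.2. Of all genes tested 15% were higher and 15.2% lower after siRNA.1, and 15.8% were higher and 15.1% lower after siRNA.2. Of the 8 tested members whose windows had no match, 2 were higher and 3 lower after siRNA.1, and 2 were higher and 2 lower after siRNA.2.

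Most members were among the abundant transcripts of these cells. The median over the 83 tested members was 125 FPKM in the control libraries, against 1.79 FPKM over all genes tested, and 70 of them had at least 100 CPM, counts scaled by library size and TMM factor. On the deposited FPKM scale the highest control means were those of RPL8 with 734 ± 28.1 (SD, n = 3) and RPL7A with 553 ± 18.3, both core proteins of the large subunit. These FPKM divide by the length of all annotated exons of a gene, a median 2.91 times its canonical mRNA. Per kilobase of canonical mRNA the highest members were RPS24 with 1950 CPM, RPL35 with 1641 CPM and RPL8 with 1494 CPM, and RPLP0 had 1085 CPM per kilobase. At the other end stood the paralogs RPL10L at 0, RPL3L with 0.374 CPM per kilobase and RPS27L with 2.76 CPM per kilobase.

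Reads that match several loci can be lost or split when they are counted, so the levels of some members are uncertain. RPL39, a protein of the peptide exit tunnel, had 4346 counts over all libraries while its 18 annotated pseudogenes had 52774. RPL21 had 4896 counts beside 3757 on 72 pseudogenes, and RPL41, the shortest member, was also below the sum of its pseudogenes. Over all members the 1295 pseudogene rows held 5.77% to 5.91% as many counts as the members themselves in each library. Members called with both siRNAs below differed in this. RPL7 had 91394 counts beside 29339 on pseudogenes, RPL10 had 74380 beside 13105 and RPL23A had 32975 beside 10023. The pseudogenes of RPL28 and RPL36 had 82 and 0 counts. The part of split reads in their changes was not tested. RPS10, RPL17 and RPL36A share 84.0%, 96.9% and 43.8% of their canonical exons with annotated same-strand readthrough genes, and had 18.1, 34.7 and 30.2 CPM in the control libraries. RPL26 shares 65.3% with an unnamed same-strand gene that had 0 counts. Antisense annotation covers 53.7% of RPL10, 24.1% of RPS3A, 20.6% of RPS6, 17.2% of RPL23A and 6.92% of RPL36, and the strand setting of the counting is not given in the sources used here, so their counts could include antisense reads.

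The share of the library that the members held as a sum depended on the total used. Their share of all counts was 3.89% ± 0.0935 (SD, n = 3) after control siRNA, 3.72% ± 0.131 after siRNA.1 and 3.87% ± 0.0905 after siRNA.2, and the ranges of 3.78% to 3.97%, 3.61% to 3.86% and 3.77% to 3.94% overlapped. With mitochondrially encoded genes left out of the total, the share was 4.10% to 4.29% in the control libraries, 3.80% to 4.07% after siRNA.1, below every control library, and 3.99% to 4.17% after siRNA.2, overlapping the controls. The ratio of summed counts between the subunits differed. Counts on small subunit genes were 0.675 ± 0.0027 times those on large subunit genes in the control libraries, 0.646 ± 0.00043 times after siRNA.1 and 0.654 ± 0.00223 times after siRNA.2. The lowest control library stood at 0.673 and the highest siRNA library at 0.656, so the groups did not overlap in this ratio, which does not depend on scaling between libraries. As a sum over the members it was given no test. A sum weighs abundant members most, and how often sums over other gene sets give ratios without overlap was not computed. By gene, the median log2 fold change after siRNA.1 was -0.04 in the large and -0.08 in the small subunit. After siRNA.2 these were 0.04 and -0.02.

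**Figure D1:**
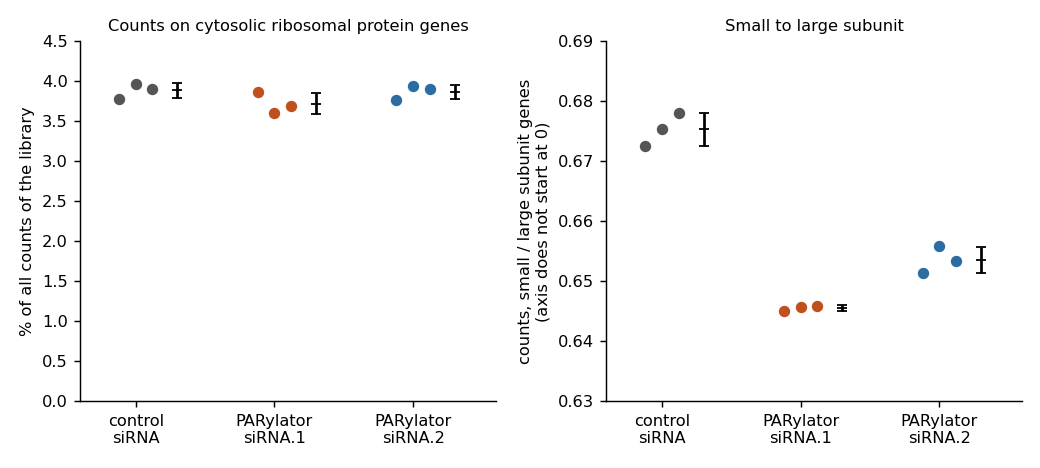
Left, counts on all 84 cytosolic ribosomal protein genes as a percent of all counts of a library, and right, counts on the 32 small subunit genes divided by counts on the 52 large subunit genes, on an axis that does not start at 0. Points are the 3 libraries of each condition and bars the mean and SD. On this total the shares overlap between 3.61% and 3.97%, while the ratio lies between 0.673 and 0.678 in the control libraries and between 0.645 and 0.656 in the siRNA libraries.

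Members also moved together within conditions. On the scaled CPM, replicate 2 of siRNA.1 was the lowest library of its condition for 72 of the 83 tested members and replicate 1 the highest for 72. Replicate 1 of siRNA.2 was the lowest for 76 members, and replicate 1 of the control for 54. Of 2338 other genes of at least 100 CPM, replicate 2 of siRNA.1 was the lowest for 43.9%, replicate 1 of siRNA.2 for 60.4% and replicate 1 of the control for 38.8%. The median member deviated from its condition mean by -0.06 to 0.06 on the log2 scale in these libraries, whereas the median over those other genes deviated by -0.03 to 0.02. Members called with these libraries are therefore given with the counts that remained when each library was left out.

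With siRNA.1, 34 of the 83 tested members (41%) differed from the control at an edgeR adjusted p under 0.05, against 30.3% of all 21395 genes. More of them fell than rose: 8 were higher (15% of all genes were) and 26 lower (15.2% of all genes). With siRNA.2, 38 members (45.8%) differed, against 30.9% of all genes, and here 23 were higher (15.8% of all genes) and 15 lower (15.1% of all genes). Both comparisons use the same control libraries. The median log2 fold change of the members was -0.05 after siRNA.1 and 0.02 after siRNA.2, and that of all genes was 0.00 with each. The split after siRNA.1 depended on the scaling, since library totals without TMM gave 11 higher and 19 lower, and without replicate 2 of siRNA.1 the number lower was 17. With siRNA.2 the number higher was 13 without its replicate 2 and 15 without its replicate 3.

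The changes were small. RPL26L1, a paralog, was the only member called with a log2 fold change beyond 0.5 in either direction, and it was so with both siRNAs. Of all 21395 genes tested, 2409 were called and lay beyond 0.5 after siRNA.1, and 2504 after siRNA.2. Of 2338 other genes of at least 100 CPM these were 201 and 206, and of the 70 members that abundant 0 with each. Called or not, 33.3% of all genes lay beyond 0.5 after siRNA.1 and 33.4% after siRNA.2, many of them scarce. Of the members 2.41% and 1.2% did. Among the 70 members of at least 100 CPM the median absolute log2 fold change was 0.08 after siRNA.1 and 0.09 after siRNA.2, against 0.16 and 0.17 over 2338 other genes that abundant, and 45.7% and 47.1% of these members were called against 62.2% and 63.3% of those genes. No member was called in opposite directions by the siRNAs. Called with both, 8 members were higher (9.64%, against 11.1% of all genes) and 15 lower (18.1%, against 10.2% of all genes), 11 were called lower after siRNA.1 and not called after siRNA.2 (13.3%, against 4.86% of all genes), 15 were called higher after siRNA.2 and not called after siRNA.1 (18.1%, against 4.6% of all genes), and 34 were called with neither (41%, against 60.4% of all genes). Among the 70 members of at least 100 CPM, 8.57% were higher and 21.4% lower with both. Of the 2338 other genes that abundant, 24.8% were higher and 22% lower with both. Of these members 15.7% were called lower after siRNA.1 only, 17.1% higher after siRNA.2 only and 37.1% with neither. Those other genes gave 8.94%, 7.78% and 22.8%. Being called with one siRNA and not with the other is no test of the difference between them, which is given further on.

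By subunit, 20 of 51 tested large subunit genes were called after siRNA.1, 6 higher and 14 lower with a median log2 fold change of -0.04, and 22 after siRNA.2, 15 higher and 7 lower with a median of 0.04. Of the 32 small subunit genes, 2 were higher and 12 lower after siRNA.1 with a median of -0.08, and 8 were higher and 8 lower after siRNA.2 with a median of -0.02. Called after siRNA.1 and siRNA.2 were 39.2% and 43.1% of the large and 43.8% and 50% of the small subunit genes. Of all genes, 15% were higher and 15.2% lower after siRNA.1, and 15.8% and 15.1% after siRNA.2. Of 2338 other genes of at least 100 CPM, 62.2% and 63.3% were called in either direction. Without the paralogs the medians were -0.04 and 0.03 over 46 large subunit genes and -0.09 and -0.02 over 31 small subunit genes.

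The largest falls shared by both siRNAs were those of RPS2, RPLP0, RPSA, RPS3A, RPL15, RPL7, RPS3 and RPS4X, which include some of the most abundant members. RPS2, a small subunit protein near the mRNA entry site, had 1062, 1165 and 1156 CPM in the control libraries, 951, 832 and 851 CPM after siRNA.1, and 879, 941 and 970 CPM after siRNA.2. Every siRNA library lay below every control library. The log2 fold changes were -0.36 ± 0.03 (SE, edgeR adjusted p = 1.69e-23) and -0.28 ± 0.03 (edgeR adjusted p = 2.5e-14).

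RPLP0, the base of the stalk that recruits translation factors to the large subunit, had 1174, 1224 and 1199 CPM in the control libraries, 1008, 951 and 944 CPM after siRNA.1, and 966, 1017 and 1023 CPM after siRNA.2. The log2 fold changes were -0.31 ± 0.03 (edgeR adjusted p = 6.92e-18) and -0.26 ± 0.03 (edgeR adjusted p = 9.06e-13), and no siRNA library reached the lowest control. The acidic proteins that bind to it moved less: RPLP1 changed by -0.07 and -0.09 and RPLP2 by -0.05 and 0.04, and neither was called.

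RPSA, a small subunit protein that also serves as a precursor of the laminin receptor, had 706, 770 and 757 CPM in the control libraries, 597, 596 and 600 CPM after siRNA.1, and 620, 664 and 661 CPM after siRNA.2. The 3 conditions formed 3 separate ranges, after siRNA.1 lowest. The fall was -0.32 ± 0.04 (edgeR adjusted p = 4.26e-16) after siRNA.1 and -0.20 ± 0.04 (edgeR adjusted p = 6.59e-07) after siRNA.2, and siRNA.2 was above siRNA.1 by 0.12 ± 0.04 (edgeR adjusted p = 0.017). The call between the siRNAs was lost in 5 of 20 other settings. RPS3A, of the mRNA exit side of the small subunit, had 528, 545 and 536 CPM in the control libraries, 453, 403 and 424 CPM after siRNA.1, and 453, 496 and 479 CPM after siRNA.2. It fell by 0.33 and 0.17 on the log2 scale (edgeR adjusted p = 2.25e-15 and 7.52e-05).

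RPS3, which lines the mRNA entry channel, fell by 0.27 and 0.16 (edgeR adjusted p = 4.32e-14 and 6.29e-06), RPS4X, an X-linked small subunit gene, by 0.25 and 0.13 (edgeR adjusted p = 3.42e-11 and 0.00103), and RPL7, of the large subunit, by 0.26 and 0.19 (edgeR adjusted p = 3.98e-10 and 4.98e-06). In each of the 3 genes all siRNA libraries lay below all control libraries. RPL12, RPL27, RPL5, RPL3, RPS6 and RPS24 were also lower with both at an edgeR adjusted p of 0.04 or less, by 0.24 or less on the log2 scale. The siRNA.2 libraries of RPL3 overlapped the controls. Its siRNA.2 call was lost in 6 of 20 other settings, and that of RPL5 in 4 of 20. RPS6 is the ribosomal substrate of S6 kinase, and RPL3 lies next to the peptidyl transferase center.

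RPL15 had an order of its own. This large subunit protein, whose gene is mutated in some patients with Diamond-Blackfan anemia, had 371, 398 and 381 CPM in the control libraries, 370, 337 and 351 CPM after siRNA.1, and 298, 309 and 295 CPM after siRNA.2. All siRNA.2 libraries stood below all others. The call after siRNA.1 was lost in 6 of 20 other settings, and that after siRNA.2 in 0. The log2 fold change was -0.12 ± 0.04 (edgeR adjusted p = 0.0162) after siRNA.1 and -0.35 ± 0.04 (edgeR adjusted p = 1.27e-15) after siRNA.2, and the difference between the siRNAs was -0.23 ± 0.04 (edgeR adjusted p = 1.58e-06), the only one of the 83 in that direction to pass the test.

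Higher with both siRNAs were RPL26L1, RPL10, RPL28, RPL36, RPL23A and RPS12, in each case with every siRNA library above every control library. RPL10, which joins the large subunit late in its maturation, had 414, 408 and 394 CPM in the control libraries, 513, 470 and 481 CPM after siRNA.1, and 458, 497 and 499 CPM after siRNA.2. It rose by 0.27 ± 0.04 (edgeR adjusted p = 3.48e-10) and 0.26 ± 0.04 (edgeR adjusted p = 1.31e-09) on the log2 scale. RPL28, a large subunit protein without a bacterial counterpart, had 329, 332 and 334 CPM in the control libraries, 417, 378 and 380 CPM after siRNA.1, and 380, 407 and 411 CPM after siRNA.2, a rise of 0.24 ± 0.04 (edgeR adjusted p = 9.35e-08) and 0.27 ± 0.04 (edgeR adjusted p = 1.12e-09).

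RPL36 rose by 0.21 and 0.24 (edgeR adjusted p = 7.44e-07 and 1.02e-08), RPL23A, at the mouth of the peptide exit tunnel, by 0.16 and 0.26 (edgeR adjusted p = 0.00232 and 1.79e-07), and RPS12, of the head of the small subunit, by 0.19 and 0.20 (edgeR adjusted p = 0.000147 and 3.72e-05). RPL17 (0.24 and 0.30) was also called higher with both, but its siRNA.1 libraries overlapped the controls. Among the members called higher after siRNA.2 and not called after siRNA.1, RPL39 reached 0.35 ± 0.09, RPL36A 0.32 ± 0.08 and RPS21 0.22 ± 0.05, and their values after siRNA.1 were 0.17, 0.17 and 0.08. Set against siRNA.1 directly, siRNA.2 was above it by 0.14 in RPS21 (edgeR adjusted p = 0.0274), whereas the differences of 0.18 in RPL39 and 0.15 in RPL36A did not pass the test (edgeR adjusted p = 0.235 and 0.283).

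The siRNAs were then set against each other, which is the test of the difference between them. With siRNA.2, 20 members were higher than after siRNA.1 and RPL15 was lower, 25.3% of the 83 against 12.2% of all genes (6.1% of all genes higher and 6.06% lower). Among the 70 members of at least 100 CPM 28.6% were called, 19 higher and 1 lower. Of 2338 other genes that abundant 36.4% were called, 463 higher and 389 lower. The median over the members was 0.08 on the log2 scale, and 0.00 over all genes. Among the members called in this comparison, the largest differences beside that of RPL15 were those of RPL9, a large subunit protein at the base of the stalk, with 0.24 ± 0.08 (edgeR adjusted p = 0.0353), RPS18, of the small subunit head, with 0.17 ± 0.04 (edgeR adjusted p = 0.000145), RPL7A with 0.17 ± 0.03 (edgeR adjusted p = 2.62e-05) and RPS3A with 0.16 ± 0.04 (edgeR adjusted p = 0.00132). RPS18 had 651, 676 and 651 CPM in the control libraries, 646, 594 and 637 CPM after siRNA.1, and 681, 737 and 694 CPM after siRNA.2, so that the control libraries lay between the siRNAs. Against the control after siRNA.2, RPS18 and RPL9 were called at an edgeR adjusted p of 0.0391 and 0.0494, and each lost that call in 10 of 20 other settings. Between the siRNAs RPL9 lost the call in 8 of 20 settings, RPS3A in 3, RPL7A in 2 and RPS18 in 0. RPL7A had 1241, 1292 and 1216 CPM in the control libraries, 1186, 1080 and 1067 CPM after siRNA.1, and 1196, 1283 and 1261 CPM after siRNA.2, at the level of the controls. This count rested on single libraries: it was 4 without replicate 2 of siRNA.2, 7 without its replicate 3, 6 without replicate 2 of siRNA.1 and 11 without its replicate 3, and limma on log2(FPKM + 0.1) called 2 members higher and 1 lower. RPL15 remained lower in all of these fits.

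Members that bind MDM2, the ubiquitin ligase of p53, when they are not built into ribosomes did not move as one group. RPL5, which carries 5S rRNA together with RPL11, had 653, 663 and 669 CPM in the control libraries, 585, 534 and 565 CPM after siRNA.1, and 585, 630 and 622 CPM after siRNA.2. It fell by 0.24 ± 0.04 (edgeR adjusted p = 4.71e-09) and 0.11 ± 0.04 (edgeR adjusted p = 0.0117). Its partner RPL11 had 361, 376 and 378 CPM in the control libraries, 397, 384 and 386 CPM after siRNA.1, and 387, 401 and 393 CPM after siRNA.2, and its values of 0.07 and 0.08 were not called. RPL23 was -0.11 (edgeR adjusted p = 0.0261) and -0.02, RPS7 -0.10 (edgeR adjusted p = 0.043) and -0.03, and RPL26, which also binds the p53 mRNA, 0.07 and 0.17 (edgeR adjusted p = 0.000566). The fall after siRNA.1 was not called in 11 of 20 other settings for RPS7 and in 8 of 20 for RPL23. That of RPL5 after siRNA.2 was not called in 4 of 20. Over these 5 genes, 0 were higher and 3 lower after siRNA.1, and 1 was higher and 1 lower after siRNA.2, beside 15% of all genes higher and 15.2% lower after siRNA.1 and 15.8% and 15.1% after siRNA.2. Of 19 members mutated in Diamond-Blackfan anemia, 0 were higher and 6 lower after siRNA.1, and 3 were higher and 4 lower after siRNA.2, so that 31.6% and 36.8% were called, near the 30.3% and 30.9% of all genes.

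The paralogs had fewer counts than their parents, in the control means from 0.0651% for RPL3L to 26.3% for RPL7L1 and 62.2% for RPL39L. RPL26L1 was the only paralog to pass the test. RPL26L1 (chr5:172958729-172969771, plus strand, in the deposited annotation on GRCh38) encodes a protein close to RPL26, which sits near the exit tunnel. It had 19.5, 16.9 and 19.4 CPM in the control libraries, 31.0, 28.8 and 29.1 CPM after siRNA.1, and 34.4, 31.2 and 32.6 CPM after siRNA.2. All siRNA libraries lay above all control libraries, by 1.60-fold after siRNA.1 (log2 0.67 ± 0.10, edgeR adjusted p = 4.74e-11) and 1.76-fold after siRNA.2 (log2 0.82 ± 0.09, edgeR adjusted p = 1.28e-16). Its parent RPL26 had 287, 299 and 305 CPM, then 321, 305 and 309 CPM, then 321, 342 and 337 CPM. As a percent of its parent's counts the paralog went from 6.26% ± 0.579 (SD, n = 3) in the control libraries to 9.51% ± 0.123 and 9.84% ± 0.801.

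The remaining paralogs were not called with either siRNA. RPL22L1, a paralog of RPL22 that acts in splicing as well as in the ribosome, had 19.2, 17.9 and 16.5 CPM in the control libraries, 19.5, 20.2 and 21.0 CPM after siRNA.1, and 19.8, 17.6 and 20.4 CPM after siRNA.2, log2 fold changes of 0.18 ± 0.11 (edgeR adjusted p = 0.215) and 0.11 ± 0.11 (edgeR adjusted p = 0.494). RPL22 itself fell after siRNA.1 by 0.14 ± 0.04 (edgeR adjusted p = 0.00511) and was 0.00 after siRNA.2. RPS27L, a p53-inducible paralog of RPS27, had 16.0, 17.2 and 17.4 CPM, then 19.3, 18.4 and 20.2 CPM, then 17.0, 18.2 and 21.0 CPM, with log2 fold changes of 0.20 ± 0.11 (edgeR adjusted p = 0.188) and 0.15 ± 0.11 (edgeR adjusted p = 0.329). RPL7L1, whose product is a ribosome biogenesis factor rather than a core protein, was the most abundant paralog with 159 to 172 CPM in the control libraries, and changed by -0.05 and 0.06. RPL39L, known from the testis, changed by -0.12 and 0.15. RPL3L, a muscle paralog of RPL3, had 98 counts over all libraries.

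Paralogs were then set against the parent within each library, a ratio free of scaling. In 7 of 12 comparisons the libraries did not overlap, each with the paralog relatively higher. Both comparisons of a pair share the control libraries, and the share over other gene pairs was not computed. For single genes in scaled CPM, 19% of all genes lay wholly above and 19.5% wholly below the controls after siRNA.1. After siRNA.2 these were 20.4% and 19.4%. The share of RPL22L1 in its parent's counts was 4.95% ± 0.453 in the control libraries, 6.17% ± 0.353 after siRNA.1 and 5.32% ± 0.477 after siRNA.2. RPS27L stood at 5.71% ± 0.214, 6.69% ± 0.372 and 6.75% ± 0.539 of RPS27, and RPL7L1 at 26.3% ± 0.614, 30.2% ± 0.784 and 31.2% ± 0.498 of RPL7. In that last pair RPL7 itself changed by -0.26 and -0.19 on the log2 scale and RPL7L1 by -0.05 and 0.06. RPL39L stood at 62.2% ± 12.5, 50.6% ± 4.44 and 54.4% ± 5.69 of RPL39, with overlap. RPL39 had 4346 counts over all libraries beside 52774 on its pseudogenes, so the level and the direction of this ratio are uncertain. Its log2 difference from the control was -0.28 after siRNA.1 and -0.18 after siRNA.2. With pseudogene counts added these were -0.06 and 0.16. The exact two-sided permutation test gave p = 0.1 (adjusted 0.171 over 12 comparisons) for both siRNAs in RPL26L1, RPS27L and RPL7L1 and for siRNA.1 in RPL22L1, the smallest p that 3 against 3 libraries allow, so none could pass 0.05.

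**Figure D2:**
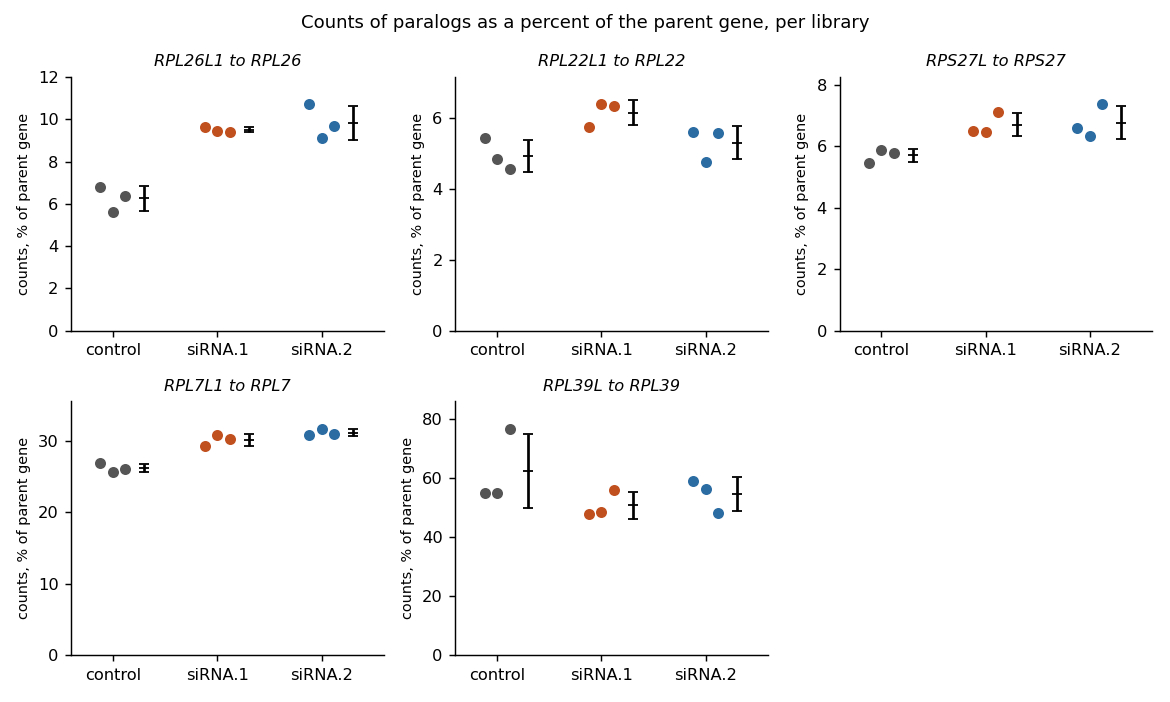
Counts of 5 paralogs as a percent of the counts of the parent gene in the same library, with axes from 0. Points are the 3 libraries of each condition and bars the mean and SD. RPL26L1 goes from 5.63% to 6.78% of RPL26 in the control libraries to between 9.14% and 10.7% in the siRNA libraries, whereas RPL39L overlaps across conditions.

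Falls were more frequent among members with long coding sequences. Over the 77 tested members that are not paralogs, the log2 fold change had a Pearson r of -0.44 with log2 coding length after siRNA.1 (Spearman rho -0.43) and -0.42 after siRNA.2 (rho -0.37). These are correlations across genes that share libraries and controls, given as a description. Over 9508 other protein-coding genes of at least 10 CPM, r was -0.07 and -0.08. Of 19 members with 600 to 900 coding bases, 2 were higher and 13 lower after siRNA.1, and 3 were higher and 10 lower after siRNA.2, and RPS2, RPSA, RPS3A, RPS3, RPL7 and RPS4X are among them. Of 25 members with fewer than 400 coding bases, 2 were higher and 3 lower after siRNA.1, and 8 were higher and 1 lower after siRNA.2. Of the other protein-coding genes of at least 10 CPM with 600 to 900 coding bases, 25.1% were higher and 24.7% lower after siRNA.1, and 27.4% were higher and 24.2% lower after siRNA.2. Of those with fewer than 400, 31% were higher and 16.2% lower after siRNA.1, and 38.7% were higher and 14.3% lower after siRNA.2, so more of these short genes rose than fell with each siRNA. The bin from 900 bases on held 3 members and the bin from 600 bases held 19, so both are thin.

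Library by library against the mean of the controls, rho with coding length lay between -0.35 and -0.46 in the 6 siRNA libraries and between -0.09 and 0.10 in the 3 control libraries. The 6 values share the error of that mean, to which the control libraries themselves belong, so they are not separate observations. Between the siRNAs the relation was near 0 (r = 0.03). The log2 fold change also went with abundance. Its r with the log2 control CPM was -0.39 after siRNA.1 and -0.48 after siRNA.2 over the members, and -0.11 with each over the other genes. The control libraries enter both the fold change and the control CPM, and the relation of abundance to coding length was not computed. With the length of the whole canonical mRNA r was -0.08 and -0.11 over the members and -0.13 and -0.15 over the other genes. The parts of coding length and abundance were not separated.

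**Figure D3:**
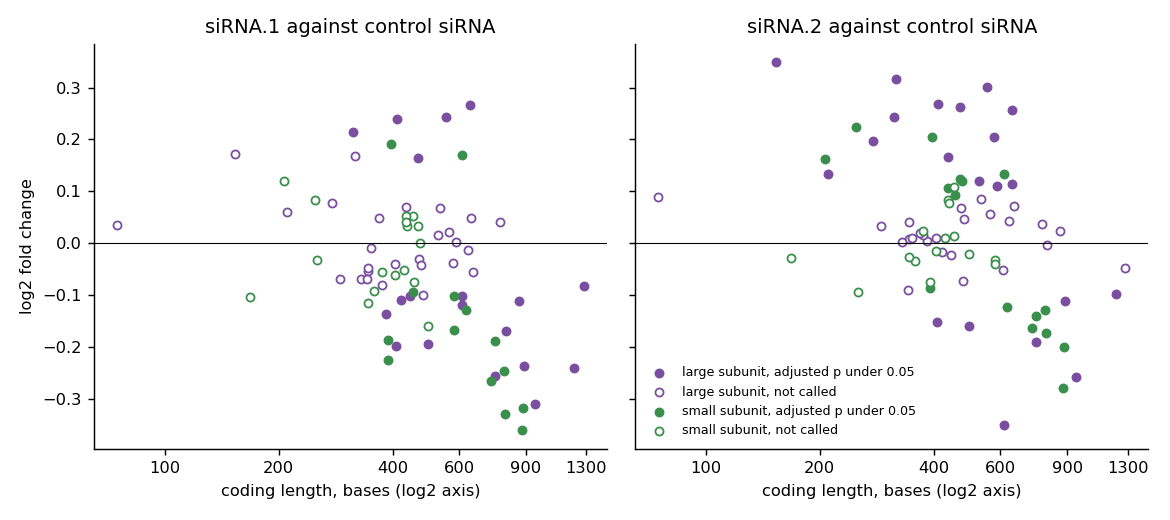
Log2 fold change against control siRNA by coding length (log2 axis, bases) of the 77 tested members without paralogs, for siRNA.1 (left) and siRNA.2 (right). Purple points are large and green points small subunit genes, and filled points have an edgeR adjusted p under 0.05. Points fall toward the right, with r of -0.44 and -0.42.

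Other gene groups of ribosome supply were listed for comparison. Of 39 factors that build ribosomes in the nucleolus and export them, 32 were higher and 1 lower after siRNA.1 (median log2 fold change 0.30), 33 were higher and none lower after siRNA.2 (median 0.35), and 31 were higher with both. NOLC1, a nucleolar chaperone of small nucleolar ribonucleoproteins, had 262, 272 and 279 CPM in the control libraries, 546, 527 and 553 CPM after siRNA.1, and 480, 529 and 510 CPM after siRNA.2, a rise of 1.00 ± 0.04 (edgeR adjusted p = 9.46e-131) and 0.90 ± 0.04 (edgeR adjusted p = 9.51e-107). RIOK2, a kinase of late small subunit assembly, rose by 0.51 and 0.69, and PES1, which matures the large subunit rRNA, by 0.54 and 0.49.

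Mitochondrial ribosomal protein genes, which serve the separate ribosome of that organelle, also rose more often than they fell. Of 78, 30 were higher and 2 lower after siRNA.1 (median 0.12) and 39 were higher and none lower after siRNA.2 (median 0.18). The largest rises with both were those of MRPS18C (0.70 and 0.57), MRPL40 (0.48 and 0.63) and MRPL12 (0.51 and 0.58). Of 4 cytosolic ribosomal proteins whose symbols fall outside the rule, FAU, a ubiquitin-like fusion that gives a small subunit protein, rose by 0.29 and 0.33 (edgeR adjusted p = 1.93e-06 and 4.11e-08), RACK1 fell by 0.13 after siRNA.1, and RPL36AL was called with neither.

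Translation factors and other TOP mRNAs went both ways. Of 15 tested, 2 were higher and 6 lower after siRNA.1 (median -0.04), and 6 were higher and 3 lower after siRNA.2 (median 0.03). EIF4B, which assists the unwinding of mRNA for initiation, fell by 0.18 and 0.35, while EEF1D, an exchange factor of elongation, rose by 0.34 and 0.29 and the nucleolar chaperone NPM1 by 0.17 and 0.34. Among 13 regulators of ribosomal protein mRNA, 5 were higher and 3 lower after siRNA.1 and 6 were higher and 3 lower after siRNA.2. MYC, a transcription factor that drives ribosome production, had 211, 209 and 206 CPM in the control libraries, 380, 376 and 371 CPM after siRNA.1, and 360, 373 and 379 CPM after siRNA.2, a rise of 0.85 ± 0.04 (edgeR adjusted p = 3.02e-83) and 0.83 ± 0.04 (edgeR adjusted p = 4.89e-80). LARP1, which binds TOP mRNAs, rose by 0.37 and 0.40, and EIF4EBP2, a repressor of cap-dependent initiation, fell by 0.38 and 0.29. These list counts stand beside 15% and 15.8% of all genes called higher and 15.2% and 15.1% called lower.

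**Figure D4:**
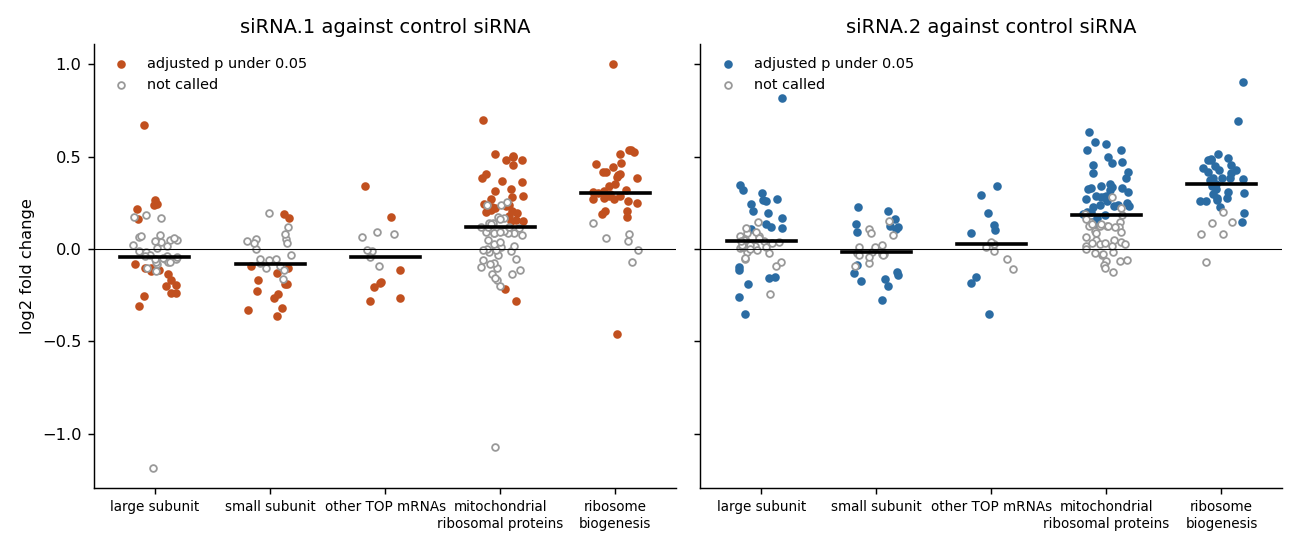
Log2 fold change against control siRNA of each tested gene in 5 groups, for siRNA.1 (left) and siRNA.2 (right). Filled points have an edgeR adjusted p under 0.05, black bars are medians, and points are spread sideways at random. The medians of the large and small subunit lie between -0.08 and 0.04, those of the mitochondrial ribosomal protein genes at 0.12 and 0.18 and those of the ribosome biogenesis genes at 0.30 and 0.35. NPM1 is in both of the lists it belongs to.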

How the data were processed

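Libraries were made from poly(A)+ RNA, and the methods name STAR for alignment to GRCh38 and featureCounts for counting. Versions, annotation release and strand setting are not given in the sources used here. The authors deposited raw counts per gene, used here for all tests, and FPKM computed from them with the exonic gene size, used for the filter and for limma. Genes had to reach a mean FPKM of 0.1, which left 21395, and their counts were tested with edgeR 4.0.16 (R 4.3.3), quasi-likelihood, TMM scaling, all 3 conditions fitted together with no covariate, Benjamini-Hochberg adjustment over all genes and a threshold of 0.05. The SE is the absolute log2 fold change over the square root of F. CPM are counts scaled by library size and TMM factor. Alternatives were DESeq2 1.42.0, limma 3.58.1, other scalings and filters, a replicate block and each library left out. Exact permutation tests used scipy 1.17.1. Lengths and overlaps came from GENCODE release 44, where all 84 members were found by identifier, and start sequences from RefSeq. Library pairs of a condition differed by 2.76 to 4.62 times the counting noise (chi-square per degree of freedom), so none was a repeat. The members, lists and rules were chosen with earlier results of these data known. Named genes were, per direction, up to 8 members called with both siRNAs with libraries apart and the largest mean change, the paralogs and their parents, the 5 largest differences between siRNAs, the 3 highest and lowest FPKM, the stalk and MDM2-binding members, and up to 3 genes per comparison list. RPL12, RPL27, RPL5, RPL3, RPS6, RPS24, RPL17, RPL36A, RPS21 and the overlap, pseudogene and per-kilobase examples were named after their values were seen. Some genes chosen by these rules are not reported here, and counts over groups include them. The tests were tried on simulated data.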

Additional observations from a re-analysis of the deposited data

Results flagged for a closer look

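The number of members that differed between the siRNAs was 21, by the edgeR test of siRNA.2 against siRNA.1. Differences of members named in the text, as log2 fold change siRNA.2 minus siRNA.1, were -0.23 for RPL15, 0.10 for RPS3, 0.12 for RPS4X, 0.12 for RPSA, 0.13 for RPL5, 0.14 for RPL22, 0.14 for RPL3, 0.16 for RPS3A, 0.17 for RPL7A, 0.17 for RPS18 and 0.24 for RPL9. RPS3, RPS4X, RPSA, RPL5, RPL3 and RPS3A were lower than the control with both siRNAs and less so after siRNA.2. Against the control, RPL22 and RPL7A were called lower after siRNA.1 and not called after siRNA.2, whereas RPS18 and RPL9 were called higher after siRNA.2 and not called after siRNA.1. The siRNA.2 call against the control was lost in 10 of 20 other settings for RPS18 and in 10 of 20 for RPL9. It was lost in 6 of 20 for RPL3 and 4 of 20 for RPL5. The difference between the siRNAs was not called in 8 of 20 for RPL9 and 6 for RPS3. For RPS4X, RPSA and RPL5 this was 5 each, for RPL22 and RPS3A 3 each and for RPL3 and RPL7A 2 each. It was 0 for RPL15 and RPS18. The members shifted together between replicates of a condition, and the part of that shift in these differences was not tested.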

How the results depend on the processing

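With each library left out in turn, the number of members lower after siRNA.1 ranged from 17 to 31, higher after siRNA.2 from 13 to 29, and higher after siRNA.2 than after siRNA.1 from 4 to 28. limma on log2(FPKM + 0.1) and on log2(FPKM + 1) called 2 members higher after siRNA.2 than after siRNA.1, where edgeR called 20, and DESeq2 called 16. The share of counts on the members fell by 0.286 percentage points after siRNA.1 when mitochondrially encoded genes were left out of the total, against 0.164 with them. The change of this share after siRNA.2 was -0.019 percentage points, -0.11 without mitochondrially encoded genes and from -0.07 to 0.032 with each library left out, so its sign was not fixed. All other settings kept the counts of members called within 1.5 times their values. Of the settings tried on single named members, 105 took a value to the other side of the threshold from called to not called and 29 the other way, and 36 moved a value beyond its spread or turned the sign of a value that was not called. No called value turned its sign. With the replicate block, 8 members were higher and 22 lower after siRNA.1, 20 and 14 after siRNA.2, and 15 and 1 between the siRNAs. Libraries of the same number correlated between -0.19 and 0.11 in their deviations from the condition means, so the number was not taken as a pairing. Depth limited RPL3L, LINC00885 and the other members under 60 CPM, whose standard errors were larger.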
